A study of Mus musculus with 12 samples.

Results

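Replication-dependent histone genes, which lie in clusters named Hist1 to Hist4 in the mouse, were examined in RNA-seq libraries of splenic B cells. Members were the gene symbols that begin with Hist1h, Hist2h, Hist3h or Hist4h and that held 10 or more estimated counts in at least 3 of the 12 libraries. Of 64 symbols with such a name among 32699 gene symbols, 59 met this minimum, and all 59 entered the tests. They comprised 5 genes for the linker histone H1 and, for the core histones, 17 H2A, 15 H2B, 10 H3 and 12 H4 genes. By name, the Hist1 cluster contributed 48 members, Hist2 8, Hist3 2 and Hist4 1. Among the 5 symbols left out, Hist1h2bl came closest, with 10 or more counts in 2 libraries, and Hist1h4k, the member nearest to the limit, reached that count in 3.

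The libraries came from mouse splenic B cells labelled knockout (KO) or wild type (WT) for Chd4, which encodes an ATP-dependent chromatin remodeller of the NuRD complex. The groups were KO cells and WT cells after 48 hr with 10 µg/ml lipopolysaccharide (LPS) and 25 ng/ml interleukin 4 (IL-4), and KO cells and WT cells without stimulation (0 hr), with 3 libraries in each. The labels give no strain, age or deleter allele, and nothing ties a library to its own mouse or culture. The p-values therefore rest on library-to-library spread, which may be technical. The comparisons were KO against WT at each time, 48 hr against 0 hr in each genotype, and the interaction, which is the KO-minus-WT difference at 48 hr less that at 0 hr.

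Histones package DNA into nucleosomes, and a cell that copies its genome must double its histones, so the replication-dependent genes are transcribed mainly in S phase. Their mRNAs usually have no introns and end in a conserved stem-loop rather than a poly(A) tail. The stem-loop binding protein, encoded by Slbp, holds that end through processing, translation and decay. Some of these genes also yield polyadenylated transcripts that run past the stem-loop. The cDNA kit used here starts synthesis from poly(A), so the counts describe the histone RNA that such priming captured, not all histone mRNA.

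The stem-loop was sought in the GENCODE transcripts of each member as a 6-base stem beginning GGC or GGT around a 4-base loop beginning with T. It was found in at least 1 transcript of 40 of 59 members and, for scale, in 408 of 58797 protein-coding transcripts (0.69%). There were 7 distinct forms, and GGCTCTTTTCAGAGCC occurred in 22 members. The following 30-base stretches show the stem-loop, in capitals, of genes on which the results turn, with the 14 bases before it in lower case (sense strand, 5′ to 3′).
Hist1h2ao: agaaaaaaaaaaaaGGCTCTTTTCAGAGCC
Hist1h2ae: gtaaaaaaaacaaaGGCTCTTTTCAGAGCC
Hist1h2ag: tgatcgccaacaaaGGCTCTTTTCAGAGCC
Hist1h2ac: acttcaaacccaaaGGCTCTTTTCAGAGCC
Hist1h2bg: actcctaacccaaaGGCTCTTTTCAGAGCC
Hist1h3c: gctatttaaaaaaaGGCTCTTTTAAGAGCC
Hist1h3g: acaaccactttaaaGGCTCTTCTTAGAGCC
Hist2h4: cccccatccctaacGGCCCTTTTTAGGGCC
Directly before the stem-loop, Hist1h2ao had 12 A bases in a row, the longest such run in any member. The median of the 40 was 3, and the next longest run was 7, in Hist1h3c.

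Library totals ran between 38956484 and 53189198 estimated counts. Chd4, the targeted gene, was at 51.3, 38.8 and 74.7 CPM (counts scaled to library size, so that values compare across libraries) in the KO 48 hr libraries and at 102, 96.1 and 123 CPM in the WT 48 hr libraries. It was at 100, 70.6 and 92.8 CPM in the KO 0 hr libraries and at 99.4, 68.1 and 92.8 CPM in the WT 0 hr libraries. Chd4 RNA therefore separated the labels at 48 hr only (log2 fold change -0.96, edgeR adjusted p = 0.038, kept under 12 of 22 alternatives), and at 0 hr, where it did not (0.02, adjusted p = 0.99), KO stands for the libraries labelled KO. The genotypes also differed in sex-linked RNA, with Xist at 0.856 to 1.59 CPM in all 6 KO libraries and at 75.4 to 293 CPM in all 6 WT libraries, so sex-linked expression and genotype cannot be told apart. A principal component analysis placed KO 0 hr replicate 6 (5.0) and KO 48 hr replicate 12 (-0.2) nearest to WT (10 to 18.9) along its second axis, which held 6.1% of the variance, with the rest of the KO libraries at -31.8 to -13.1. The 6 B cell markers summed to 5295 to 9042 CPM over the 12 libraries. T cell markers reached at most 132 CPM, NK cell markers 34.3 CPM, myeloid markers 402 CPM, platelet markers 78.5 CPM and plasma cell markers 985 CPM. Erythroid markers were at 5.21 to 13.7 CPM at 48 hr and 289.6 to 3475 CPM at 0 hr, and each of these marker lists apart from the B and plasma cell ones was lower at 48 hr in every tested gene that passed, except 1 NK gene in WT.

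Summed over the 59 members, histone RNA averaged 2211 ± 135 CPM in KO 48 hr, 2605 ± 370.5 CPM in WT 48 hr, 226 ± 63 CPM in KO 0 hr and 277 ± 40.8 CPM in WT 0 hr (SD, n = 3 each). One H2A gene symbol made up most of the sum after stimulation. Hist1h2ao (chr13:21810465-21810944, mm10, plus strand, 1 exon) held 1631, 1802 and 1829 CPM in the KO 48 hr libraries and 2162, 2513 and 1836 CPM in the WT 48 hr libraries. It held 128, 55.6 and 82.6 CPM in the KO 0 hr libraries and 99.4, 129 and 72.7 CPM in the WT 0 hr libraries. Its share of the summed histone CPM was 79.3% ± 2 in KO 48 hr, 83.2% ± 1.54 in WT 48 hr, 38.2% ± 5.22 in KO 0 hr and 35.7% ± 4.99 in WT 0 hr. No 48 hr library overlapped a 0 hr library. The genotypes overlapped at 0 hr, and at 48 hr the highest KO library lay just under the lowest WT library, a difference that did not pass the test (log2 fold change -0.31, 95% interval -0.85 to 0.24, edgeR adjusted p = 0.66). Hist1h2ao is listed as 2 transcripts, whereas GENCODE annotates 1, and the values above are their sum. At 48 hr uc007prq.3 was at 1134, 1154 and 914 CPM in KO and 1372, 1921 and 1101 in WT. The other, uc007prt.3, was at 496, 648 and 915 CPM in KO and 790.2, 592 and 735 in WT. Of the 31-base words of the annotated Hist1h2ao sequence, 93.8% also occur in the neighbouring Hist1h2ap. The sum may therefore join near-identical H2A copies of more than 1 locus, which was not tested.

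**Figure D1:**
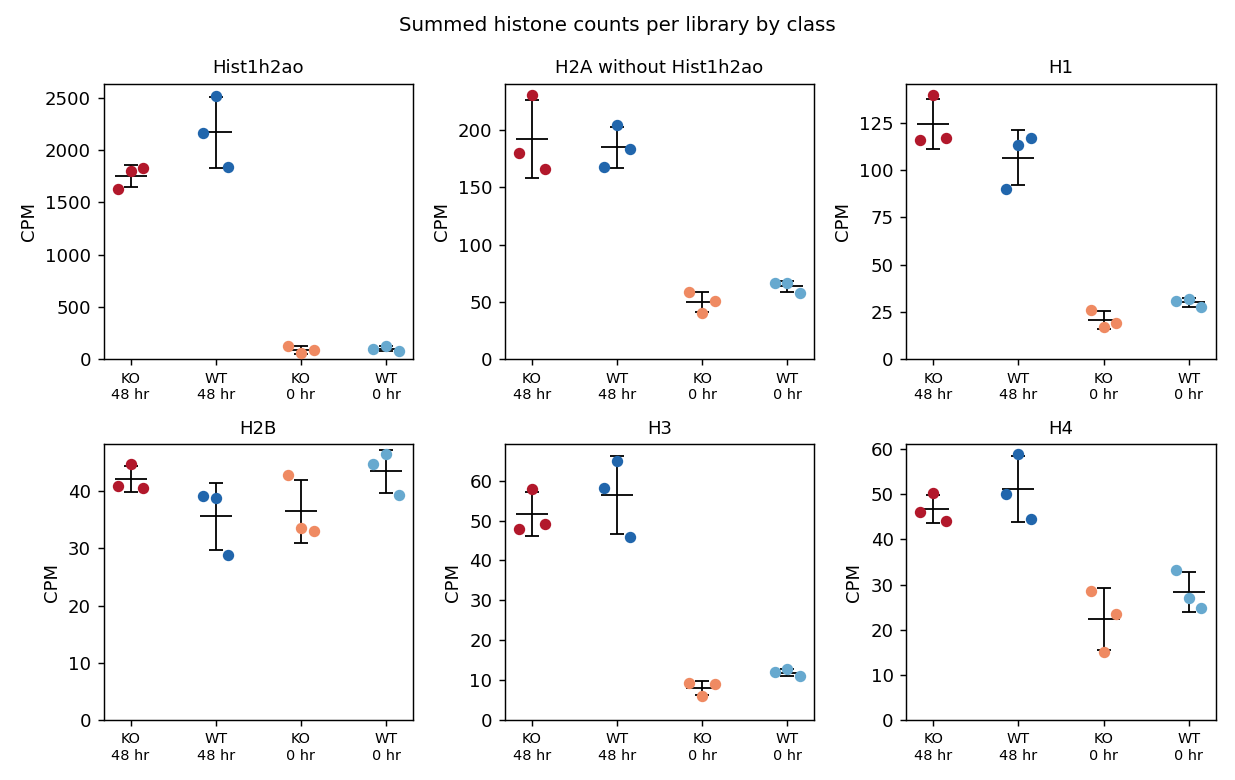
Summed CPM of the histone genes in each library, for Hist1h2ao alone, for the other H2A genes and for the H1, H2B, H3 and H4 genes (vertical axes from 0; each panel has its own scale). Points are libraries and black bars the mean and SD of 3. Every panel except H2B places both 48 hr groups above both 0 hr groups, while H2B averaged 42.1 CPM in KO 48 hr, 35.7 in WT 48 hr, 36.5 in KO 0 hr and 43.5 in WT 0 hr.

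Without Hist1h2ao, the remaining members summed to 457 ± 58.3 CPM in KO 48 hr, 435 ± 39.7 CPM in WT 48 hr, 137 ± 26.7 CPM in KO 0 hr and 177 ± 14.7 CPM in WT 0 hr. Per kilobase of transcript, Hist1h2ao stood at 3654 CPM per kb in KO 48 hr and 4522 in WT 48 hr. These 2 values divide the sum of its 2 listed transcripts by 1 annotated length of 480 bases. Hist1h2ae, another H2A gene, followed at 133 and 125 CPM per kb in KO 48 hr and WT 48 hr. The median member was at 3.84 CPM per kb in KO 48 hr and 4.99 in WT 48 hr. In bulk RNA, a change in the number of cells that express a gene and a change in RNA per cell cannot be told apart.

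With stimulation, most histone genes rose, and a smaller set fell. In KO cells 37 of 59 members were higher at 48 hr than at 0 hr and 9 were lower (edgeR, adjusted p below 0.05), where 33.0% of all 19125 tested genes were higher and 37.7% lower. In WT cells 33 were higher and 13 lower, where 33.0% of all tested genes were higher and 40.9% lower. The same shares of all genes are the background for the counts by class, cluster and transcript end below. The median log2 fold change over the members was 1.69 in KO and 1.30 in WT, against -0.30 and -0.39 over all tested genes. Scaling by library totals alone shifted the median of all genes by -0.81 in KO and -0.89 in WT, and then 28 members were higher and 13 lower in KO, where 19.1% and 59.3% of all genes were, and 24 higher and 18 lower in WT, where 18.8% and 62.4% were. No member called in WT changed sign under that scaling, and in KO 1 did, Hist1h1c.

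Both genotypes shared 31 genes that rose and 9 that fell. A further 5 genes rose in KO and did not pass the test in WT (Hist1h1c, Hist1h2bn, Hist1h2br, Hist1h4b and Hist2h2ac), and 2 rose in WT alone by this criterion (Hist1h2aa and Hist2h2bb). Hist1h2br sums 6 listed transcripts that come in pairs with identical counts. With each transcript as its own feature, 1 such pair rose by 2.90 in KO and 1.81 in WT (edgeR adjusted p = 0.0019 and 0.019). Its other transcripts did not pass in either genotype. In WT 3 genes fell that did not pass in KO (Hist1h2bg, Hist2h2ab and Hist3h2ba). Hist1h2ac was the single gene called in opposite directions. The other 8 members passed in neither genotype. Whether the genotypes differed in these changes was tested by the interaction, given after the genotype comparisons.

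**Figure D2:**
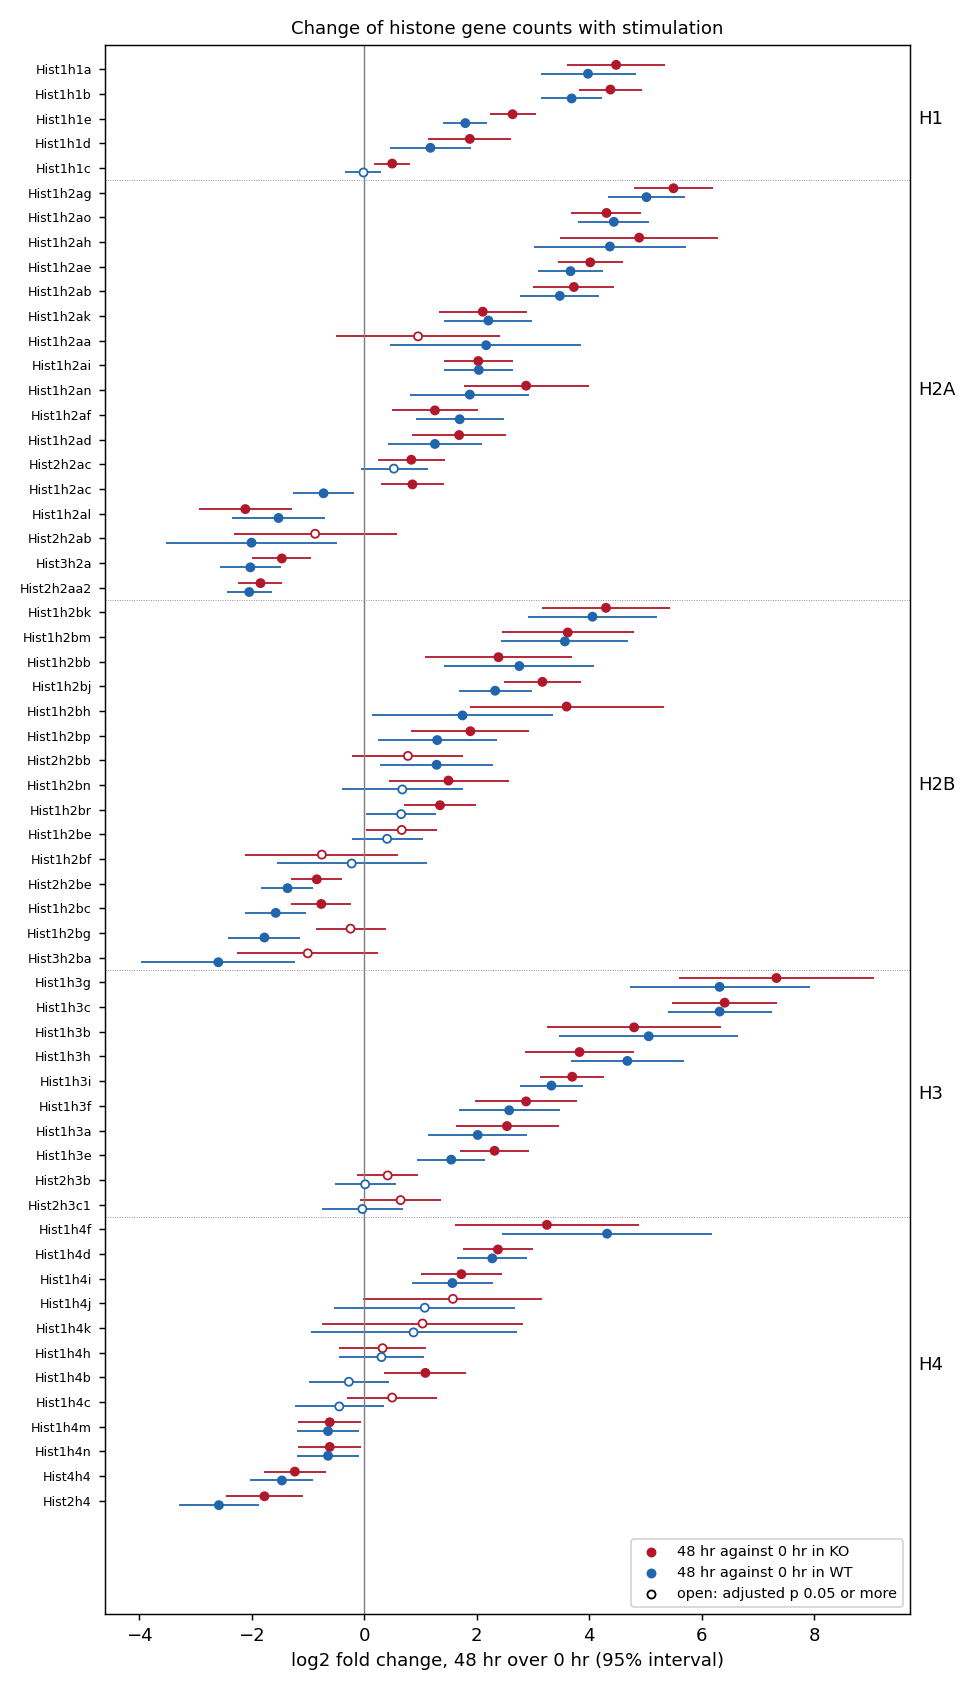
Log2 fold change of each of the 59 histone genes between 48 hr and 0 hr (horizontal axis), in KO (red, upper point) and WT (blue, lower point), with 95% intervals, grouped by histone class from H1 at the top to H4 at the bottom. Filled points passed edgeR's test. Hist1h3g and Hist1h3c lie farthest right, at 7.33 and 6.41 in KO and both at 6.32 in WT, and Hist3h2ba and Hist2h4 lie farthest left in WT at -2.59 and -2.58.

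The H1 genes, which encode the linker histones that bind DNA where it enters and leaves the nucleosome, rose in 5 of 5 cases in KO and 4 of 5 in WT. Hist1h1b was at 48.3, 58.5 and 46.9 CPM in the KO 48 hr libraries and at 3.59, 1.73 and 2.10 CPM in the KO 0 hr libraries. The WT libraries held 32.5, 43.5 and 52.0 CPM after stimulation and 3.30, 3.48 and 3.16 CPM before it. Its log2 fold change was 4.38 (SE 0.26, edgeR adjusted p = 3.7e-09) in KO and 3.69 (SE 0.25, adjusted p = 1.4e-08) in WT, with no overlap between times. Hist1h1e was nearly as abundant at 48 hr but started higher, with 44.8, 57.1 and 48.5 CPM in KO 48 hr, 34.4, 43.3 and 44.5 in WT 48 hr, 10.3, 6.75 and 7.10 in KO 0 hr and 12.6, 12.8 and 9.80 in WT 0 hr. It rose by 2.64 (SE 0.19) in KO and 1.80 (SE 0.18) in WT on the log2 scale. Hist1h1c had the smallest change of the class, at 12.2 ± 0.676 CPM in KO 48 hr, 12.1 ± 1.19 in WT 48 hr, 8.66 ± 1.07 in KO 0 hr and 12.2 ± 0.468 in WT 0 hr. Its log2 fold change was 0.50 in KO (edgeR adjusted p = 0.0092) and -0.01 in WT (adjusted p = 0.95). The H1 class as a whole thus spanned log2 fold changes of 0.50 to 4.48 in KO and -0.01 to 3.98 in WT.

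Of the 17 H2A genes, which form dimers with H2B on the nucleosome, 12 rose and 3 fell in KO, and 11 rose and 5 fell in WT. Hist1h2ag had the largest rise in the class. It was at 42.4, 62.2 and 37.9 CPM in the KO 48 hr libraries and at 1.37, 0.493 and 1.29 CPM in the KO 0 hr libraries, while the WT libraries held 40.9, 44.6 and 44.2 CPM after stimulation and 1.04, 1.38 and 1.56 CPM before it. The times did not overlap, and the log2 fold change was 5.50 (SE 0.33, edgeR adjusted p = 3.6e-09) in KO and 5.02 (SE 0.32, adjusted p = 6.7e-09) in WT. Hist1h2ao rose by 4.31 (SE 0.29) in KO and 4.44 (SE 0.29) in WT, and Hist1h2ae by 4.02 (SE 0.27) and 3.67 (SE 0.27) on the same scale. Hist1h2ah, from a low start of 0 to 0.114 CPM at 0 hr, rose by 4.89 (SE 0.65) in KO and 4.37 (SE 0.63) in WT.

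Of the 4 H2A genes without a Hist1 name, Hist2h2ac passed as higher in KO (0.84, edgeR adjusted p = 0.015), and none passed as higher in WT. Hist2h2aa2 (chr3:96239749-96240276), the most abundant member after Hist1h2ao at 0 hr when expressed per kilobase (37.3 CPM per kb in KO, 48.5 in WT), was at 5.25, 4.80 and 6.38 CPM in KO 48 hr, 7.00, 6.91 and 4.84 in WT 48 hr, 22.4, 18.9 and 17.7 in KO 0 hr and 28.1, 24.8 and 24.0 in WT 0 hr. It fell by 1.84 (SE 0.18, edgeR adjusted p = 7.1e-07) in KO and by 2.04 (SE 0.18, adjusted p = 2.4e-07) in WT on the log2 scale, and every 0 hr library lay above every 48 hr library. All of its 31-base words occur in other genes as well, so its reads cannot be assigned to this locus alone. Hist3h2a (chr11:58954685-58956830) fell by 1.46 (SE 0.25) in KO and by 2.02 (SE 0.25) in WT. Hist1h2al, annotated as a processed pseudogene, fell by 2.11 (SE 0.38) in KO and by 1.52 (SE 0.38) in WT. Gm20632 holds 79.9% of its 31-base words and all of those of Hist2h2aa2, so the falls of these 2 members may not be separate.

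Among the 15 H2B genes 8 rose and 2 fell in KO, and 7 rose and 4 fell in WT, and the summed level of the class had no common direction. Hist1h2bk had the highest value, 4.30 in KO and 4.06 in WT on the log2 scale. Hist3h2ba had the lowest, -1.0 in KO (edgeR adjusted p = 0.14) and -2.59 in WT (adjusted p = 0.0023). By mean CPM over the 12 libraries, the 2 most abundant H2B genes were Hist1h2bc and Hist2h2be, which fell in both genotypes. Hist1h2bj, which rose by 3.17 in KO and 2.33 in WT, was the highest of the class in WT 48 hr. It averaged 7.02 CPM there, against 4.6 for Hist1h2bc and 4.28 for Hist2h2be. In KO 48 hr it averaged 7.22 CPM, between Hist1h2bc (7.66) and Hist2h2be (5.83). Hist1h2bc was at 8.06, 9.39 and 5.52 CPM in KO 48 hr, 5.64, 4.48 and 3.68 in WT 48 hr, 17.1, 11.3 and 10.6 in KO 0 hr and 15, 14.4 and 11.6 in WT 0 hr. Its log2 fold change was -0.76 (SE 0.25, edgeR adjusted p = 0.013) in KO and -1.57 (SE 0.25, adjusted p = 7.8e-05) in WT, and the KO call was lost without KO 0 hr replicate 4 or KO 48 hr replicate 12 (adjusted p up to 0.077).

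The 2 transcripts listed for Hist1h2bc did not move alike. The first, uc007pul.1, was at 5.47, 5.70 and 3.16 CPM in KO 48 hr, 2.81, 1.86 and 1.54 in WT 48 hr, 15.3, 10.3 and 9.76 in KO 0 hr and 11.0, 11.2 and 9.59 in WT 0 hr. The second, uc033gla.2, was at 2.59, 3.69 and 2.36 CPM in KO 48 hr, 2.83, 2.62 and 2.15 in WT 48 hr, 1.80, 1.00 and 0.882 in KO 0 hr and 3.98, 3.22 and 2.06 in WT 0 hr. With each transcript as its own feature, the first fell by 1.29 in KO (edgeR adjusted p = 0.0046) and by 2.31 in WT (adjusted p = 0.00012), whereas the second rose by 1.24 in KO (adjusted p = 0.017) and had -0.24 in WT (adjusted p = 0.60). The split of reads between transcripts that share their coding part is an estimate, and the difference between the transcripts was not tested.

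Hist2h2be (chr3:96221119-96223738) was the other of the 2 H2B genes with the highest mean over the 12 libraries. It was at 4.46, 6.20 and 6.82 CPM in KO 48 hr and 8.90, 12.6 and 9.89 CPM in KO 0 hr. The WT libraries held 4.69, 4.29 and 3.86 CPM after stimulation and 10.2, 13 and 9.82 CPM before it. Hist2h2be fell by 0.84 (SE 0.21) in KO and by 1.36 (SE 0.22) in WT. By GENCODE it shares 2.8% of its 31-base words with other genes, which would leave few of its reads to be split among copies.

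The H3 class, whose members carry the histone tail marked by many chromatin enzymes, had 8 of 10 genes higher and none lower in each genotype. The 2 that passed in neither were Hist2h3b and Hist2h3c1, both in the Hist2 cluster, at 0.42 and 0.65 in KO and 0.02 and -0.03 in WT. Hist1h3c (chr13:23744973-23745602) was at 9.43, 11.6 and 8.82 CPM in KO 48 hr and 0.171, 0.0616 and 0.118 CPM in KO 0 hr, while the WT libraries held 12.4, 13.1 and 7.47 CPM after stimulation and 0.140, 0.217 and 0.0527 CPM before it. Its log2 fold change of 6.41 (SE 0.43, edgeR adjusted p = 1.3e-08) in KO and 6.32 (SE 0.43, adjusted p = 1.3e-08) in WT rested on 3 to 11 counts per library at 0 hr. Hist1h3g had 7.33 (SE 0.81) in KO and 6.32 (SE 0.74) in WT, from 137, 173 and 151 counts in KO 48 hr, 143, 182 and 141 in WT 48 hr, 4, 0 and 0 in KO 0 hr and 7, 0 and 1 in WT 0 hr. So few counts at 0 hr leave the size of these folds uncertain, though the times do not overlap. Hist1h3b and Hist1h3h, also near 0 before stimulation (0.216 CPM or less in every 0 hr library), rose by 4.80 (SE 0.72) and 3.83 (SE 0.45) in KO and by 5.06 (SE 0.74) and 4.68 (SE 0.46) in WT. Hist1h3i, the most abundant H3 gene, was at 10.8, 12.8 and 12.5 CPM in KO 48 hr, 14.4, 16.3 and 12.3 in WT 48 hr, 1.27, 0.601 and 0.911 in KO 0 hr and 1.53, 1.52 and 1.21 in WT 0 hr, and rose by 3.70 (SE 0.26) in KO and 3.33 (SE 0.26) in WT.

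In the H4 class, which pairs with H3, 4 of 12 genes were higher and 4 lower in KO, and 3 higher and 4 lower in WT. These counts are not far from the shares of all tested genes (33.0% higher and 37.7% lower in KO, 33.0% and 40.9% in WT). Hist1h4d, the most abundant, was at 27.8, 30.8 and 26.9 CPM in KO 48 hr and 8.41, 3.19 and 4.85 CPM in KO 0 hr, while the WT libraries held 31.5, 38.6 and 28.4 CPM after stimulation and 7.58, 7.75 and 5.03 CPM before it. It rose by 2.38 (SE 0.29) in KO and 2.28 (SE 0.29) in WT without overlap between times. Hist1h4i, the next most abundant, rose by 1.73 (SE 0.34) in KO and 1.57 (SE 0.34) in WT, and the WT call was lost with library totals alone (edgeR adjusted p = 0.070). Hist2h4 (chr3:96261682-96263311) was at 0.320, 0.422 and 0.519 CPM in KO 48 hr, 0.232, 0.324 and 0.409 in WT 48 hr, 1.69, 1.34 and 1.28 in KO 0 hr and 2.30, 1.76 and 1.74 in WT 0 hr. It fell by 1.77 (SE 0.32, edgeR adjusted p = 0.00023) in KO and by 2.58 (SE 0.33, adjusted p = 9.2e-06) in WT. Hist4h4 (chr6:136801553-136804415), the lone gene of its cluster, fell by 1.23 (SE 0.26) in KO and by 1.46 (SE 0.26) in WT. Hist1h4m and Hist1h4n are listed with identical counts in every library, so they are 1 measurement and not 2. Their fall of 0.61 in KO and 0.64 in WT was close to the threshold (edgeR adjusted p = 0.049 and 0.037) and was lost under 16 and 9 of 22 alternatives.

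Read by cluster name, the rise was mostly in Hist1, whose 48 members include Hist1h2al at chr13:51202727-51203065. That pseudogene, which fell in both genotypes, lies outside the 2 stretches of chromosome 13 given below. In KO 36 of 48 Hist1 members rose and 4 fell, and in WT 32 rose and 6 fell, with median log2 fold changes of 2.21 and 1.84. Of the 8 Hist2 genes 1 rose and 3 fell in KO, and 1 rose and 4 fell in WT, with medians of -0.21 and -0.70. Of all tested genes 33.0% rose in each genotype, and 37.7% fell in KO and 40.9% in WT. In Hist3, 1 of 2 genes fell in KO and both fell in WT. Within Hist1, the genes near 21 to 22 Mb of chromosome 13 (16 of 20 higher in KO, 14 in WT) and those near 23 Mb (20 of 27 in KO, 18 in WT) gave like counts.

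The members were also described by their annotated transcript ends, with no test of the difference between end types. In GENCODE 21 members end within 100 bases of the stem-loop, 19 run farther, 10 have no stem-loop in an annotated transcript and 9 are annotated for the coding part alone. Among the 21 that end near it, 16 rose and 3 fell in KO, and 14 rose and 3 fell in WT, with medians of 2.54 and 2.33. Among the 19 that run past it, 10 rose and 3 fell in KO, and 8 rose and 6 fell in WT, with medians of 0.86 and 0.41. Among the 10 with no stem-loop found, 5 rose and 3 fell in KO, and 4 rose and 4 fell in WT, with medians of 0.84 and 0.34. Among the 9 annotated for the coding part alone, 6 rose and 0 fell in KO, and 7 rose and 0 fell in WT, with medians of 2.03 and 2.04. Hist1h2ac, Hist1h2bg, Hist2h4, Hist3h2a, Hist3h2ba and Hist4h4 are of the kind that runs past it, with 155 to 2445 annotated bases after the stem-loop. Hist1h1e, Hist1h2ae and Hist1h4d are of this kind too and rose. These are annotated ends, and where the captured RNAs ended was not measured.

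**Figure D3:**
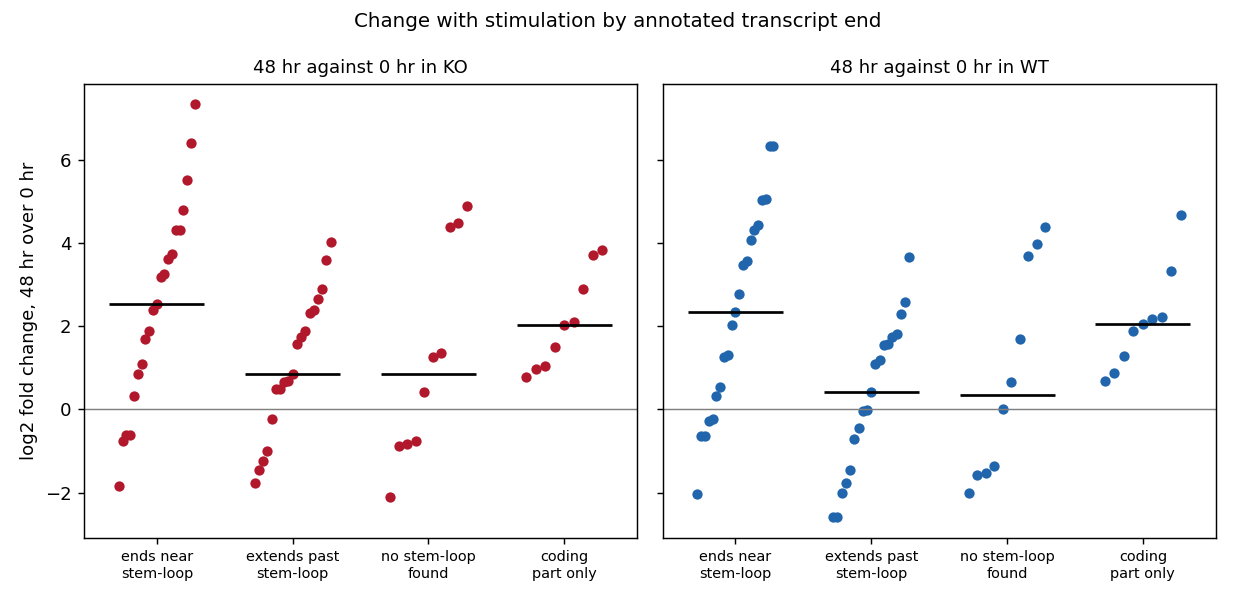
Log2 fold change between 48 hr and 0 hr (vertical axis) of the 59 histone genes, in KO (left) and WT (right), split by how the annotated transcripts end (for genes with several, by the one that runs farthest past the stem-loop). Points are genes in rank order and black lines are medians. Genes that end near the stem-loop have medians of 2.54 in KO and 2.33 in WT, above the 0.86 and 0.41 of genes whose transcripts run past it, and the groups overlap widely.

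Many H2A and H2B genes face each other head to head from a shared promoter region, and such partners did not always move together. Hist1h2ag and Hist1h2bj, whose starts are 270 bases apart, both rose. Hist1h2ae and Hist1h2bg, 176 bases apart, parted. Hist1h2ae rose by 4.02 in KO and 3.67 in WT, while Hist1h2bg had -0.24 in KO (edgeR adjusted p = 0.48) and fell by 1.77 in WT (adjusted p = 0.00011). Hist2h2ac and Hist2h2be, 239 bases apart, had 0.84 and -0.84 in KO, both called, and 0.53 and -1.36 in WT, where only the fall of Hist2h2be passed. The library kit does not record strand, so RNA read from the opposite strand cannot be told apart.

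The 250 bases before the RefSeq start were searched on both strands for 4 motifs in the 53 members with a promoter sequence (build GRCm38.p6). The octamer ATTTGCAT, bound by Oct factors, was present in 7 of 16 H2A and 5 of 13 H2B promoters and in no H1, H3 or H4 promoter of the set, against 1.6% of 32851 promoters. CCAAT was present in 81.1% of member promoters, against 33.8% of all, though in 18.2% of those of H4. TATAAA was present in 50.9%, against 12.4% of all. AAACACA, an element known from H1 promoters, was present in 4 of 5 H1 promoters, against 6.2% of all. These are letter matches, and no binding was measured.

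Few histone genes differed between genotypes by the test. At 48 hr none of the 59 members was called higher or lower in KO than in WT by edgeR, where 1.47% of all tested genes were higher and 0.544% lower. At an unadjusted p below 0.05 edgeR gave 2 higher and 2 lower, where 8.83% and 5.55% of all genes were. The 2 lower are Hist1h4m and Hist1h4n, whose identical counts make them 1 measurement. DESeq2, which called 3.06% of all genes higher and 2.48% lower, and limma-voom, which called 0.575% and 0.434%, called 0 members. The median log2 fold change was 0.02. Hist1h2bc had 0.73 (SE 0.25, 95% interval 0.19 to 1.27, edgeR adjusted p = 0.17) and Hist1h4n had -0.64 (SE 0.26, 95% interval -1.21 to -0.07, adjusted p = 0.27).

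Hist3h2ba (chr11:58948920-58949533), an H2B gene, had the largest value at 48 hr, at 2.93, 2.93 and 0.311 CPM in the KO libraries and 0.747, 0.486 and 0.512 CPM in the WT libraries. KO replicates 10 and 11 were above the WT libraries, and KO replicate 12 was below them. The log2 fold change was 1.82 (SE 0.63, edgeR adjusted p = 0.18). Without KO 48 hr replicate 12, the 48 hr KO library nearest to WT on the second principal component, Hist3h2ba (2.33, edgeR adjusted p = 0.0064) and Hist1h2bc (0.92, adjusted p = 0.048) were called higher in KO, where 3.65% of all genes were. The same 2 genes were called, with 4.54% of all genes, when KO 0 hr replicate 6 was left out as well. Markers of other cells that passed between genotypes at 48 hr were all higher in KO. They were 2 of 6 plasma cell markers, Prdm1 (1.74, edgeR adjusted p = 0.0048) and Sdc1 (1.09, adjusted p = 0.029), and 1 of 7 NK cell markers, Prf1 (2.20, adjusted p = 0.022). The plasma cell markers summed to 769 to 985 CPM in KO and 651 to 665 CPM in WT, and the NK cell markers to 3.97 to 12.5 CPM in KO and 3.40 to 5.02 CPM in WT. No marker of either list was at 0 in every library of a group. Their part in the histone values was not tested.

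At 0 hr 2 of 59 members were lower in the libraries labelled KO and none was higher (edgeR), where 0.429% of all tested genes were lower and 0.680% higher. Both are genes of the Hist1 cluster. Of the 53 members with a promoter sequence 8 had both an octamer and a TATA box, these 2 and 6 that were not called. This pairing was outside the planned search, which took each motif alone. The promoters of the 2 called genes are shown for 150 bases up to the RefSeq start, on the sense strand of each gene. In them ATTTGCAT, CCAAT and TATAAA are in capitals in either orientation.
Hist1h2ac, chr13:23683960-23684109, minus strand, GRCm38.p6: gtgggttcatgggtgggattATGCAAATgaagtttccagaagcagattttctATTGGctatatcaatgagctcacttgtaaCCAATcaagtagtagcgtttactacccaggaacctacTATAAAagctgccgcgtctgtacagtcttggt
Hist1h2bg, chr13:23571250-23571399, plus strand, GRCm38.p6: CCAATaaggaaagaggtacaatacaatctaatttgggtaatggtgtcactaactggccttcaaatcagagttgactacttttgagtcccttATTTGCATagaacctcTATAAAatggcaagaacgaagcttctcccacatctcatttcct
The octamer ended 122 bases before the start of Hist1h2ac and 51 bases before that of Hist1h2bg. The octamer and the TATAAA of Hist1h2bg were also counted for Hist1h2ae, which is among the 6 not called, because the windows of these facing genes overlap. Hist1h2ae, the partner of Hist1h2bg across the same interval, had a KO-minus-WT log2 fold change of -0.26 at 0 hr (edgeR adjusted p = 0.83), and Hist1h2bc, the partner of Hist1h2ac, had -0.07 (adjusted p = 0.97).

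Hist1h2ac (chr13:23681467-23683948), an H2A gene, was at 1.86, 2.46 and 1.97 CPM in the KO 0 hr libraries and 7.00, 7.77 and 5.06 CPM in the WT 0 hr libraries. The groups did not overlap, and the log2 fold change was -1.65 (SE 0.26, 95% interval -2.21 to -1.10, edgeR adjusted p = 0.0064). Hist1h2bg (chr13:23571396-23572013), an H2B gene, was at 2.73, 1.68 and 2.35 CPM in the KO 0 hr libraries and 7.42, 6.62 and 8.15 CPM in the WT 0 hr libraries. These groups did not overlap either, and the log2 fold change was -1.71 (SE 0.29, 95% interval -2.34 to -1.09, adjusted p = 0.010). Without KO 0 hr replicate 6, the 0 hr KO library nearest to WT on that component, the values were -1.61 (edgeR adjusted p = 0.014) and -1.75 (adjusted p = 0.018). The Hist1h2bg call was lost without WT 0 hr replicate 3, and both calls were lost with each transcript as its own feature. The highest edgeR adjusted p over the alternatives was 0.071 for Hist1h2bg and 0.056 for Hist1h2ac. Each gene has 1 listed transcript, so its counts were the same with transcripts as features, and the other features in the fit differed. By GENCODE, Hist1h2ac shares 16.9% of its 31-base words with other genes and Hist1h2bg 56.3%, so the value of Hist1h2bg may rest more on how reads were split.

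**Figure D4:**
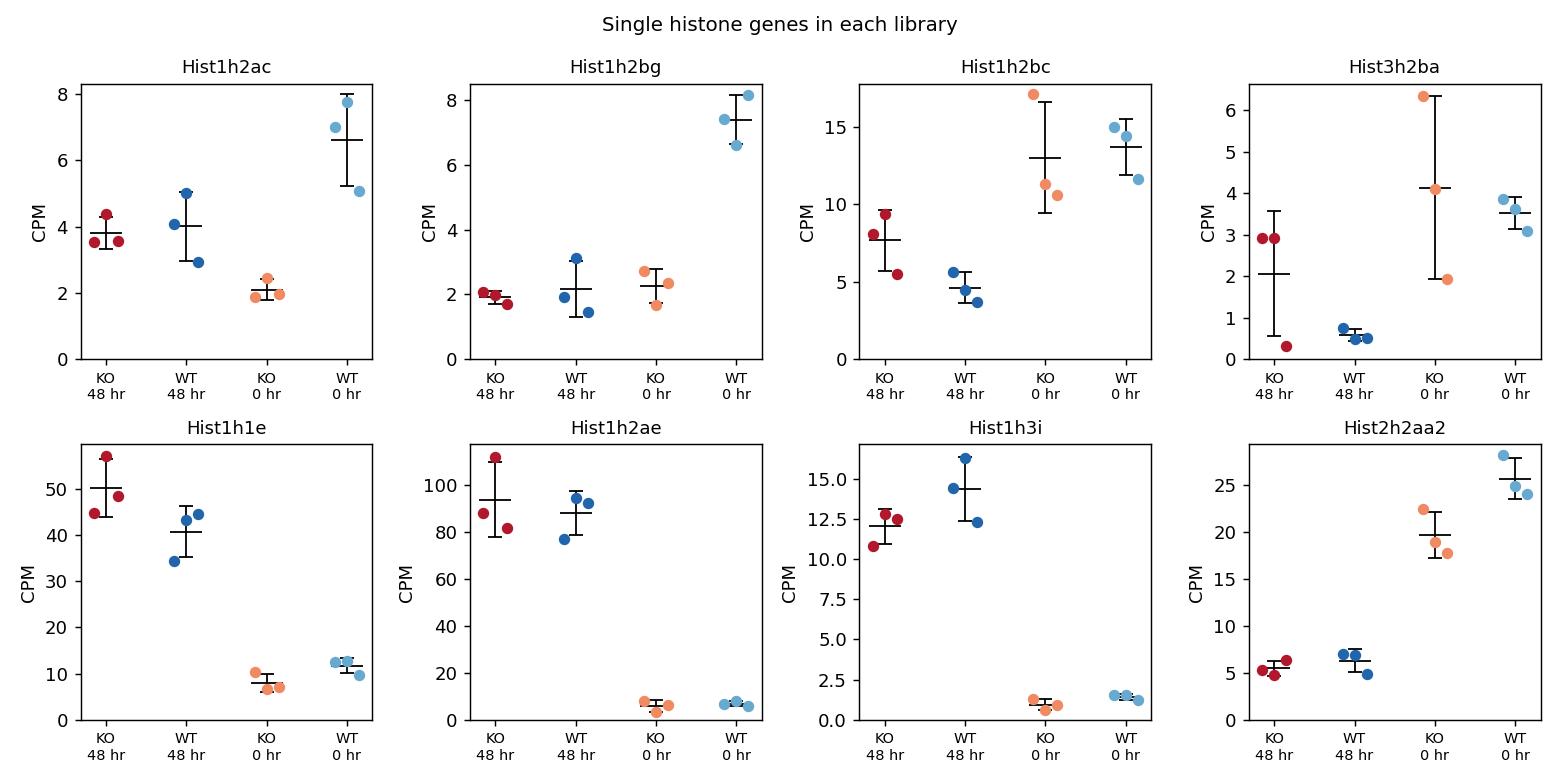
CPM of 8 histone genes in each library (vertical axes from 0; each panel has its own scale), with the mean and SD of 3 in black. In Hist1h2ac and Hist1h2bg the WT 0 hr libraries, at 5.06 CPM or more, lie above the KO 0 hr libraries, at 2.73 CPM or less. Hist3h2ba shows KO 48 hr replicate 12 apart from the other KO libraries of that time.

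Most members had lower values in KO at 0 hr without passing the test. With the 2 called genes included, 46 of 59 members had a negative log2 fold change, against 50.2% of all tested genes, and 13 had an unadjusted p below 0.05, all lower, against 4.17% of all genes lower and 6.50% higher by that measure. Hist1h4m and Hist1h4n, whose identical counts make them 1 measurement, count as 2 among the 46 and among the 13. The median was -0.34 over the members and 0.00 over all genes to 2 decimals. The members were chosen with this lower median already known, so these counts describe it and are no independent support. All 5 H1 genes were negative, at -0.94 to -0.43. Hist1h1c had -0.50 (edgeR adjusted p = 0.17, DESeq2 adjusted p = 0.012), so DESeq2 called 3 members lower and 0 higher, where it called 1.32% and 2.08% of all genes. By limma-voom 2 were lower and 0 higher, against 0.570% and 0.664% of all genes. The level of Hist1h2ao did not differ by the test (-0.18, 95% interval -0.72 to 0.37, edgeR adjusted p = 0.91). Neighbouring copies share reads, so the signs of members are not independent of each other. Summed S phase genes were at 446 to 480 CPM in the KO 0 hr libraries and 414 to 531 CPM in the WT 0 hr libraries, which overlap. Of these 15 genes 1 was called, Cdk2, which encodes a kinase of S phase entry, at 51.4, 58.9 and 52.7 CPM in KO and 28.5, 38.8 and 37.5 CPM in WT (0.64, edgeR adjusted p = 0.018). Erythroid markers were at 289.6 to 3475 CPM in the KO 0 hr libraries and at 615 to 906 CPM in the WT 0 hr libraries, and none of the 6 tested was called. Zap70, 1 of 10 T cell markers (2.04, edgeR adjusted p = 0.041), and Sdc1, 1 of 6 plasma cell markers (1.02, adjusted p = 0.048), were higher in KO at 0 hr. The T cell markers summed to 62.6 to 132 CPM in KO and 65.1 to 72.6 CPM in WT, and the plasma cell markers to 551 to 888 CPM in KO and 411 to 550.1 CPM in WT, with no marker of either list at 0. The part of these cells in the histone values was not tested.

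**Figure D5:**
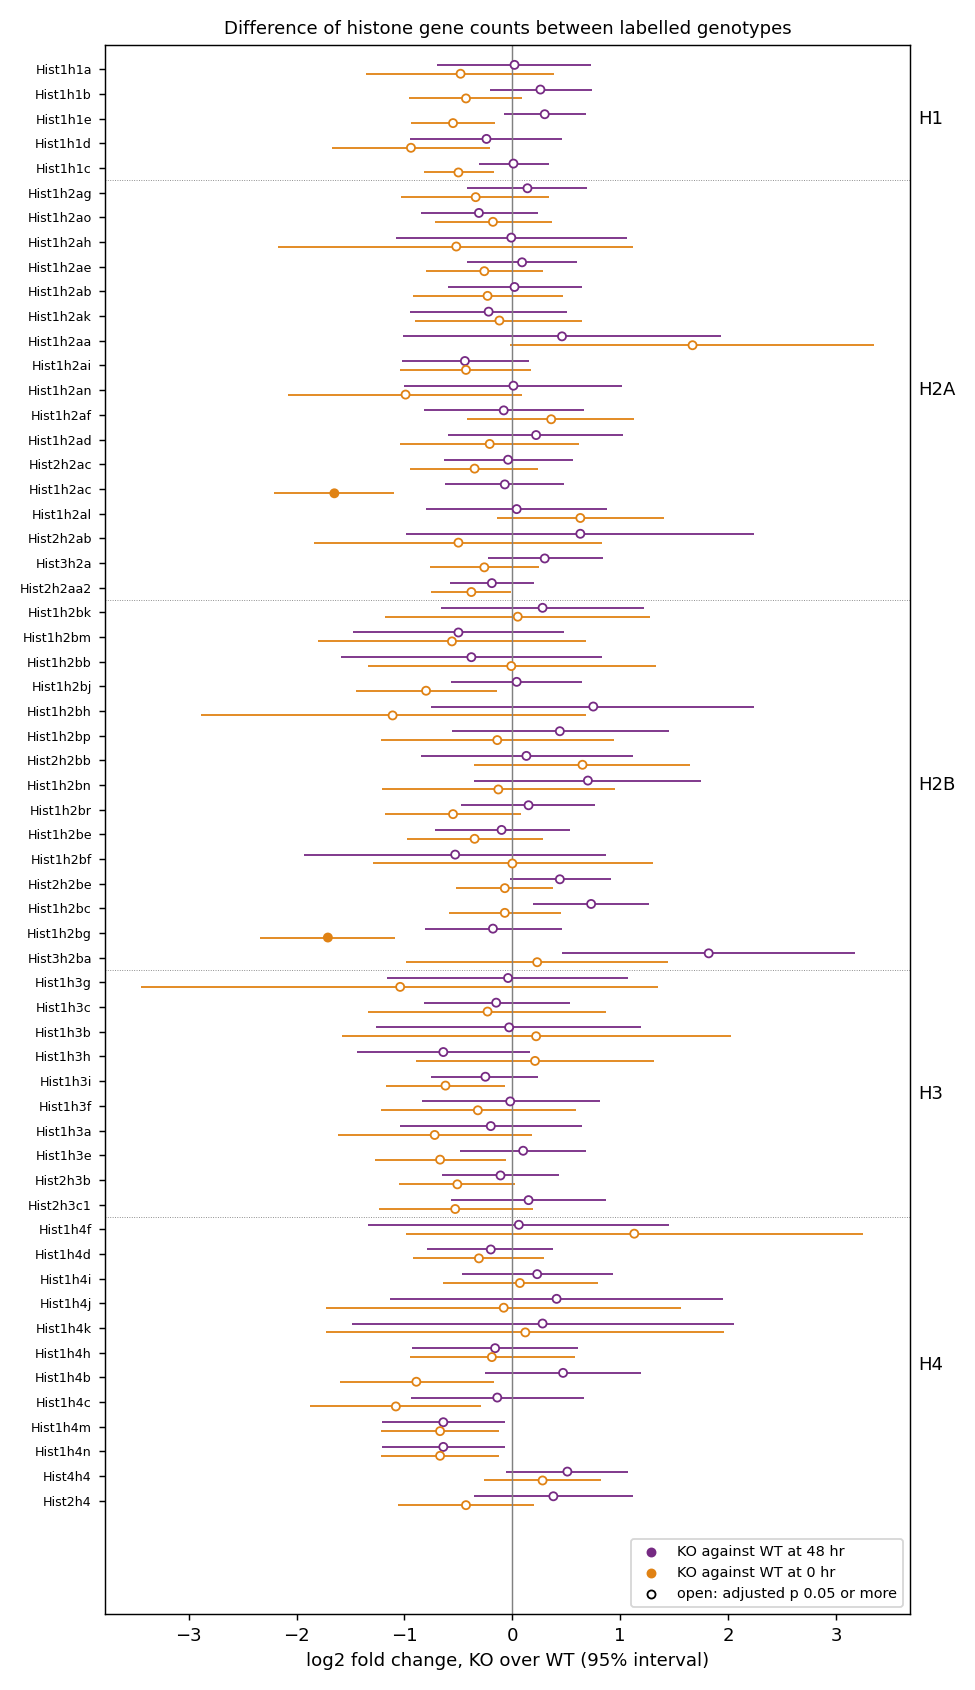
KO-over-WT log2 fold change (horizontal axis) of each histone gene at 48 hr (purple, upper point) and 0 hr (orange, lower point), with 95% intervals, grouped by class. Filled points passed edgeR's test. Hist1h2ac and Hist1h2bg at 0 hr, at -1.65 and -1.71, are the filled points, and most other 0 hr points lie left of 0.

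The interaction called no member in either direction by edgeR, where 0.0680% of all tested genes were called higher and 0.0471% lower. At an unadjusted p below 0.05 edgeR gave 6 higher and 0 lower, where 4.88% and 3.73% of all genes were. DESeq2 called 2 members higher and 0 lower, with 0.607% and 0.549% of all genes, and limma-voom called 0, with 0.0523% and 0.0366%. The value was negative for 12 of 59 members and for 48.6% of all genes. The interaction subtracts the 0 hr difference (median -0.34 over the members) from that at 48 hr (median 0.02). Its signs are therefore not separate from the lower 0 hr values, which were known when the members were chosen. Hist1h2ac, which rose by 0.86 in KO (SE 0.26, edgeR adjusted p = 0.0087) and fell by 0.72 in WT (SE 0.25, adjusted p = 0.020), had an interaction of 1.58 (SE 0.36, adjusted p = 0.15; DESeq2 adjusted p = 0.0073). Scaled by library totals alone, its change over time in KO was 0.04. In the fit as given above, its fall in WT was lost on leaving out WT 0 hr replicate 1 or 2 or WT 48 hr replicate 7 or 9 (edgeR adjusted p up to 0.11 over the alternatives). Hist1h2bg had an interaction of 1.54 (SE 0.41, edgeR adjusted p = 0.25; DESeq2 adjusted p = 0.042), and Hist1h1e one of 0.85 (SE 0.25, edgeR adjusted p = 0.31). At 48 hr Hist1h2ac was at 3.82 ± 0.486 CPM in KO and 4.02 ± 1.04 in WT (SD, n = 3 each), a log2 fold change of -0.07 with a 95% interval of -0.62 to 0.48. Hist1h2bg was at 1.91 ± 0.201 CPM in KO and 2.17 ± 0.867 in WT at that time, a log2 fold change of -0.18 with a 95% interval of -0.81 to 0.46. Among the 19 genes annotated past the stem-loop, the interaction was positive in 19, with a median of 0.68. The median was 0.40 over all members and 0.01 over all tested genes. It was positive in 8 of 10 genes with no stem-loop found (median 0.52) and in 16 of 21 that end near it (0.19). Of the 9 annotated for the coding part alone, 4 were positive (-0.01). None of these genes was called, their signs are not independent, and the difference between end types was not tested. Of the 19 genes annotated past the stem-loop, 16 had a negative KO-minus-WT value at 0 hr (median -0.43). Their median at 48 hr was 0.10, so their positive interactions largely restate the 0 hr values.

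Genes that make, carry and clear histone mRNA and protein are given for comparison. Beside these lists, 33.0% of all tested genes were higher at 48 hr in each genotype. In KO 37.7% were lower, and in WT 40.9%. Between genotypes 1.47% were higher in KO and 0.544% lower at 48 hr, and 0.680% and 0.429% at 0 hr. Of 20 genes for histone mRNA processing and decay, 16 were higher and 2 lower at 48 hr in KO, and 17 higher and 2 lower in WT. Slbp, which encodes the stem-loop binding protein, averaged 821 CPM in KO 48 hr, 881 in WT 48 hr, 156 in KO 0 hr and 131 in WT 0 hr, and rose by 2.40 and 2.75 on the log2 scale in KO and WT. Npat, the activator of histone gene transcription, rose by 2.02 and 1.88. The 2 that fell were the terminal uridylyl transferase genes Zcchc6 (-1.35 in KO, -1.26 in WT) and Zcchc11 (-1.39 and -1.33), whose enzymes take part in decay. None of the 20 was called between genotypes.

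Of 21 histone chaperone and supply genes 18 were higher and 1 lower in each genotype. Those that rose included Asf1b (3.70 in KO, 3.77 in WT) and Nasp (3.29 and 3.55), which stores histones. Supt16, a subunit of the FACT chaperone, was the one called between genotypes, at 558 CPM in KO and 203 CPM in WT at 48 hr (log2 fold change 1.46, edgeR adjusted p = 0.0015) and 137 CPM in KO and 64.3 CPM in WT at 0 hr (1.10, adjusted p = 0.013). Of 11 histone variant genes made outside S phase as well, 7 were higher and 0 lower at 48 hr in KO, and 8 higher and 1 lower in WT. H2afz, for H2A.Z, rose by 3.68 and 4.13, while H3f3a had -0.04 and 0.35 and did not pass. H1fx, a linker histone variant, was higher in KO at 48 hr, at 10, 10.5 and 1.3 CPM in the KO libraries against 0.541, 0.729 and 0.358 CPM in the WT libraries (3.74, edgeR adjusted p = 0.0072), with KO replicate 12 nearest to WT.

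Of 15 S phase and proliferation genes 14 were higher at 48 hr in each genotype, with medians of 4.44 in KO and 4.51 in WT, above those of the histone genes. Of 9 factors that bind octamer, CCAAT or related promoter elements, 5 rose and 2 fell in each genotype. Of all tested genes 33.0% rose in each genotype, and 37.7% fell in KO and 40.9% in WT. Pou2f1, which encodes Oct-1, fell by 1.47 in KO and by 1.41 in WT, and its B cell coactivator Pou2af1 rose by 1.23 in KO and 0.40 in WT. No gene of that list was called between genotypes, where 1.47% of all tested genes or fewer were in either direction at either time.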

How the data were processed

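RNA-seq of 12 libraries was analysed from 1 table of estimated counts per transcript, as deposited by the authors. The tools named, with no roles, are Trimmomatic 0.36, Salmon 0.8.2 and DESeq2 1.14.1, with build mm10, per the submitters' processing notes. Salmon estimates how reads that fit several transcripts are shared out, so values of near-identical histone copies are uncertain. The 63759 transcript rows gave 32699 gene symbols after summing. Genes passing edgeR's filterByExpr (19125) entered a robust quasi-likelihood fit of the 4 groups (edgeR 4.0.16, R 4.3.3) with TMM scaling (factors 0.723 to 1.42) and were called at a Benjamini-Hochberg adjusted p below 0.05 over all tested genes. CPM uses TMM-scaled totals.

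Positions and transcripts came from GENCODE M21, promoters from RefSeq GRCm38.p6. No genome sequence or protein table was used. Words shared between genes were counted as 31-mers over all GENCODE transcripts. The deposited counts are for transcripts of another annotation, with names such as uc007prq.3. Sharing, lengths and ends may therefore differ for the transcripts that were counted. Named genes were those called between genotypes (otherwise the 3 of lowest p) and called genes of the lists. The 5 largest called rises and falls over time at 1 CPM or more were also named. So were the 2 most abundant genes per class, by mean CPM over the 12 libraries. Values for Hist1h1a, Hist1h1c, Hist1h1d, Hist1h2bj, Hist1h2bk, Hist2h2ac, Hist2h3b, Hist2h3c1 and H3f3a were chosen after they were seen. Members and lists were chosen with earlier results of these data known, among them the lower median of these genes in KO at 0 hr. The fits were also tested on simulated data. Alternatives were DESeq2 1.42.0, limma-voom (limma 3.58.1), other scalings and filters, separate fits, transcripts as features and leaving out libraries.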

Additional observations from a re-analysis of the deposited data

How the results depend on the processing

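No paired analysis was possible because each replicate number occurs in 1 group only. The counts over time stayed within 1.5 times of those given under every alternative run. KO against WT at 0 hr called 1 member lower at the least and 2 at the most when 1 library was left out. It called 0 with each transcript its own feature, where the counts of Hist1h2ac and Hist1h2bg are unchanged. KO against WT at 48 hr called 0 to 2 members higher when 1 library was left out, and 2 without KO 0 hr replicate 6 and KO 48 hr replicate 12 together, an alternative chosen after the data were seen. The interaction called 2 higher with DESeq2. Scaled by library totals alone, summed histone CPM averaged 1664 in KO 48 hr, 1913 in WT 48 hr, 299.7 in KO 0 hr and 376 in WT 0 hr. No call of a histone gene named by rule, or of Chd4, reversed. The KO rise of Hist1h1c, a gene chosen after its values were seen, turned sign with library totals alone. Genes chosen that way, and those of the lists, are not in the counts of named calls that follow. Of 23 named calls over time in KO 19 held under all 22 alternatives, and of 24 in WT 21 held. The lost ones were Hist1h2ac and Hist1h4n in both genotypes, Hist1h4i in WT, and Hist1h2bc and Chd4 in KO. Neither 0 hr call held under all 22. The cause was not tested. Depth limits the folds of genes near 0 before stimulation, such as Hist1h3g with 0 to 7 counts in a 0 hr library.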
